A study of Mus musculus with 2 samples.

Results

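Mir132 and Mir212 are 2 microRNA genes that lie side by side on mouse chromosome 11 and are known as a pair induced by neuronal activity. Both were picked by their symbols from the 2202 microRNA genes in the count files, a rule that uses no measured values, although the pair was chosen for study with earlier results of these data known. Mir132 had ENSMUSG00000065537.2 as its gene ID and Mir212 had ENSMUSG00000065590.1, and both passed the detection limit of 10 counts in each library.

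MicroRNAs are short RNAs cut from a hairpin-shaped precursor, and they pair with messenger RNAs mainly through a short stretch near their 5′ end, the seed. In neurons, synaptic activity and the growth factor BDNF act through the transcription factor CREB to raise transcription of the Mir132 and Mir212 locus. miR-132 is known to promote the growth of dendrites and spines through targets such as Arhgap32, which encodes a GTPase-activating protein. In the visual cortex of mice the pair is known to respond to light and visual experience around the age of eye opening. In the suprachiasmatic nucleus, the seat of the circadian clock, miR-132 is induced by light.

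The measurements were microRNA sequencing counts from 2 libraries of a single group, the left cerebral cortex of male B6CASTF1/J mice aged 14 days, a hybrid of the C57BL/6 and CAST/Ei strains. The labels number the libraries as biological replicates 1 and 2 under separate tissue records but 1 donor record. The labels name more than 1 male, but whether a tissue record is 1 animal or several pooled animals is not stated. The spread between the libraries may therefore be technical, and their tests compare libraries, not conditions. No genotype, treatment or second condition was part of the study. Replicate 2 had 3189903 counts in microRNA genes and replicate 1 had 4111167, and 406 genes reached the detection limit in both. Reads that matched several genomic positions, 41.4% and 39.1% of the reads of replicates 2 and 1, were given to no gene.

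The hairpins sit in the same intron of a non-coding gene. Mir212 lies at chromosome 11, 75173388 to 75173478, and Mir132 at 75173682 to 75173747, both on the plus strand (mm10, GENCODE M21). Both are inside intron 1 of 1700016P03Rik, a gene annotated as a processed transcript with 3 exons (75172560 to 75177633, plus strand). Mir212 comes first, 790 bases after exon 1, then 203 bases separate it from Mir132, which ends 230 bases before exon 2. On the minus strand, Hic1 lies upstream and Ovca2 overlaps the far end of the host gene. The map of the host gene shows both hairpins in the first intron, which has 1380 bases.

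**Figure D1:**
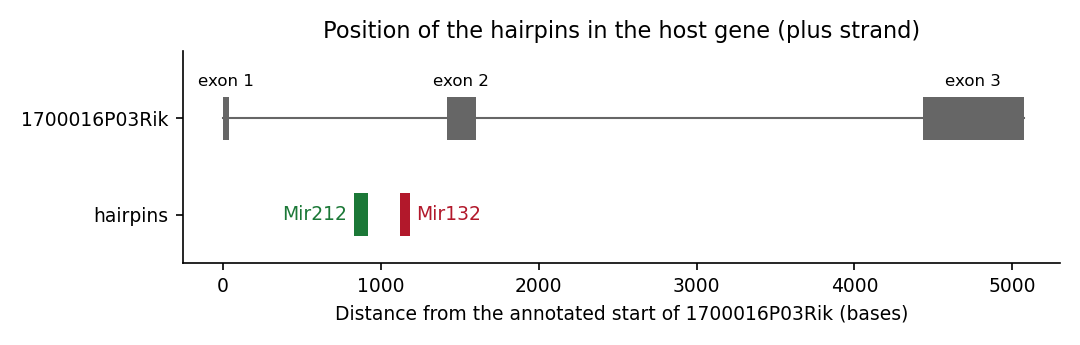
Position of Mir212 and Mir132 along 1700016P03Rik, with distance from its annotated start in bases on the horizontal axis. Grey boxes are the 3 exons and coloured boxes are the hairpins; both hairpins lie between exon 1 and exon 2, with Mir212 first.

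The mature sequences are shown because both hairpins carry one seed on their 3′ arm. They come from RefSeq on GRCm38.p6, the assembly that mm10 is, and all 4 mature forms and both hairpins had an entry. Capitals mark the seed, bases 2 to 8:
mmu-miR-132-3p: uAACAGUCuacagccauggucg
mmu-miR-212-3p: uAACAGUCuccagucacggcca
mmu-miR-132-5p: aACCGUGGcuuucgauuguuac
mmu-miR-212-5p: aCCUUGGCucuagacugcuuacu
The 3′ arms formed 1 seed group, and among the 1738 mature entries of the RefSeq table no other microRNA had their seed. The 5′ arms have different seeds, each found in no other entry. Over their 22 positions the 3′ arms were identical at 17. Counted from 1 at the 5′ end, with the base of miR-132-3p first and that of miR-212-3p last, the substitutions were A10C, C14U, U17C, U20C and G22A. Their longest common stretch was the 9 bases from the 5′ end.

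The hairpins themselves differ outside the 3′ arm, as their sequences show, with the mature arms in capitals:
Mir132 hairpin: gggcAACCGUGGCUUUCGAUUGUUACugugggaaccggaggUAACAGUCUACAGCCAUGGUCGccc
Mir212 hairpin: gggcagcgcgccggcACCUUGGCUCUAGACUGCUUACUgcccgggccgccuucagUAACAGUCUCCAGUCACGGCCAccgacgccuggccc
The Mir132 hairpin has 66 bases and a GC content of 57.6%, and the Mir212 hairpin has 91 bases and a GC content of 69.2%, against a median of 51.9% over the 406 detected genes. Of those genes, 96.1% had a lower GC content than Mir212 and 73.2% a lower one than Mir132. The minimum free energy of folding predicted by RNAfold was -37.2 kcal/mol for Mir132 and -41.5 kcal/mol for Mir212. The hairpins have no more than 10 bases in a row in common, and neither shares an 18-base stretch with any other microRNA gene of the files. Reads of mature length from either arm can therefore be told apart between these hairpins, while matches elsewhere in the genome were not analysed here. Counts were made per hairpin, so the 5′ and 3′ arms were not separated and the levels below belong to no single mature form.

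Mir132 was one of the abundant microRNAs of the cortex libraries. It had 64196 counts in replicate 2 and 50278 in replicate 1, which is 20125 CPM (exact Clopper-Pearson 95% interval 19971 to 20279) and 12230 CPM (12124 to 12336). CPM are counts per 1000000 counts in microRNA genes, and the intervals cover counting error only, since reads carried no molecular identifiers and several can stem from 1 molecule. By CPM it ranked 13th of 406 detected genes in replicate 2 and 19th in replicate 1. The mean was 16177 ± 5583 CPM (SD, n = 2), an SD of 34.5% of the mean, and the intervals of the libraries do not overlap. In bulk tissue, a microRNA held by fewer cells and less of it per cell cannot be told apart.

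Mir212 was far less abundant than its neighbour. It had 1414 counts in replicate 2 and 2729 in replicate 1, or 443 CPM (exact 95% interval 420 to 467) and 664 CPM (639 to 689). It ranked 145th of the detected genes in replicate 2 and 124th in replicate 1, and its mean was 554 ± 156 CPM (SD, n = 2). Replicate 2 was the higher library for Mir132 and the lower one for Mir212. On the opposite strand Mir132 had 0 and 3 counts in replicates 2 and 1 and Mir212 had 0 in both, so nearly all reads at the locus came from the strand of the host gene.

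Set against each other, the hairpins gave 45.4 Mir132 counts per Mir212 count in replicate 2 (exact 95% interval 43.1 to 47.9). In replicate 1 the ratio was 18.4 (17.7 to 19.2), and the mean was 31.9 ± 19.1 (SD, n = 2). Mir212 made up 2.16% of the counts of the pair in replicate 2 (exact 95% interval 2.05 to 2.27%), against 5.15% for replicate 1 (4.96 to 5.34%). Mir132 held most of the counts of the pair in both libraries, by a factor that differed between them. The mature forms have 22 or 23 bases, so a read stands for about the same length in both genes. Per base of hairpin, the longer Mir212 precursor gave a larger ratio, 62.6 in replicate 2 and 25.4 in replicate 1. This ratio needs no library total, and it was 2.46 times as high in replicate 2 as in replicate 1 (odds ratio, 95% interval 2.31 to 2.63; two-sided Fisher's exact test on the counts, p = 1.69e-171). That test allows for read sampling only.

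**Figure D2:**
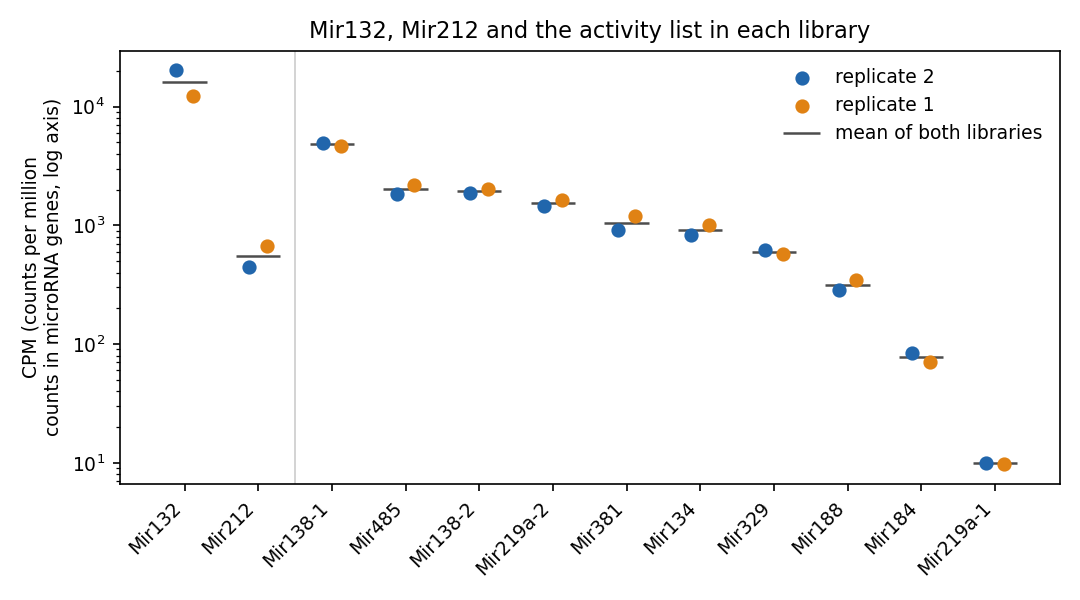
CPM of Mir132, Mir212 and the 10 genes of the activity list in each library, on a log axis, with a line at the mean of both libraries. Mir132 stands above every gene of the list in both libraries, and its libraries lie in the opposite order to those of Mir212.

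The libraries differed in opposite directions at the neighbouring hairpins. The log2 ratio of CPM, replicate 2 over replicate 1, was 0.72 for Mir132, a 1.65-fold higher level in replicate 2. For Mir212 it was -0.58, a level 0.668 times that of replicate 1. Both passed the two-sided exact binomial test, which takes the library totals as the expected split, with Benjamini-Hochberg adjustment over the 406 detected genes (adjusted p = 2.45e-35 for Mir212, and below what double precision can hold for Mir132). Differences of this kind were common: 58.1% of detected genes passed the same test, 23.4% as higher and 34.7% as lower in replicate 2, so passing it does not set these genes apart. With DESeq2 size factors the calls split into 112 higher and 108 lower, against 95 and 141 with library totals, and the log2 ratios were 0.80 for Mir132 and -0.50 for Mir212.

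The size of these differences was above the middle of the table and within its range. The median absolute log2 ratio of detected genes was 0.30. A larger absolute ratio than that of Mir132 was found in 81 genes, 20.0% of those detected, and a larger one than that of Mir212 in 114, or 28.1%. Across detected genes, which are not replicates, the log2 ratio had a Spearman correlation of -0.14 with the GC content of the hairpin and 0.0022 with the mean CPM. Mir212 has the higher GC content of the pair and the negative ratio; the part of base composition in the difference was not tested.

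**Figure D3:**
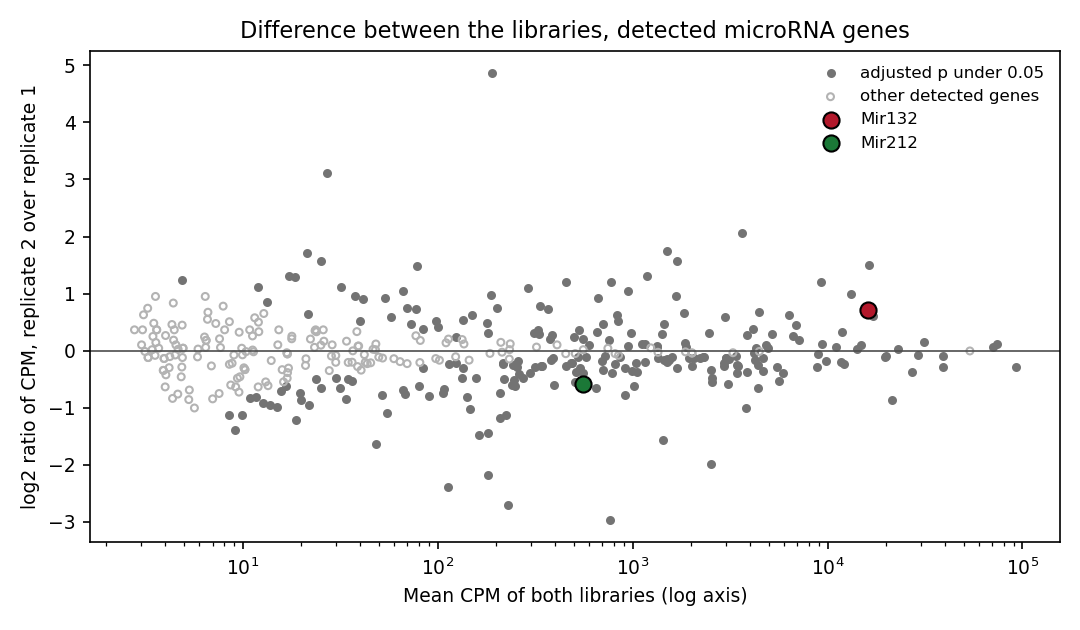
Log2 ratio of CPM, replicate 2 over replicate 1, against the mean CPM (log axis) for the 406 detected microRNA genes. Filled grey points passed the exact binomial test, and Mir132 at 0.72 and Mir212 at -0.58 lie on opposite sides of the line at 0, inside the spread of other genes.

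To see whether neighbouring hairpins usually differ this much, all adjacent detected microRNA genes on one strand within 10 kb were paired, which gave 108 pairs from 152 genes. Pairs share genes and are not independent, so the values are a description. The mean CPM of Mir132 was 29.2 times that of Mir212, a log2 ratio of 4.87, and the median pair had a log2 ratio of 2.77 between its more and its less abundant member, or 6.82-fold. A larger imbalance was found in 23 pairs (21.3%), and in 7 of the 65 pairs (10.8%) whose members share no 18-base stretch with another gene. In the Mir212 and Mir132 pair the downstream hairpin was the abundant one, as in 47 of the 108 pairs, while in 61 it was the upstream one. The pairs nearest to it in imbalance were Mirlet7c-2 with Mirlet7b (29.0-fold), Mir362 with Mir501 (28.9-fold), Mir381 with Mir487b (29.7-fold), Mir30e with Mir30c-1 (30.8-fold) and Mir411 with Mir299a (31.3-fold). Some of these share sequence with other genes, and their counts can be too low for that reason.

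The change in balance between the libraries was in the upper part of the pairs. The log2 library ratios of Mir132 and Mir212 differed by 1.30, against a median difference of 0.38 over the 108 pairs and a maximum of 2.08, and 12 pairs (11.1%) differed by more. Fisher's exact test with Benjamini-Hochberg adjustment over the pairs called a changed balance in 63.0% of them, this pair included (adjusted p = 2.61e-170). Both members passed the binomial test in opposite directions in 33 pairs, 30.6% of the 108, and in the same direction in 29. With TMM library sizes the share of opposite pairs was 25.0%, with Mir132 and Mir212 still among those calls. Pairs with a larger difference, at hairpins less than 1 kb apart, included Mir298 with Mir296 (1.98), Mir15a with Mir16-1 (1.88), Mir497 with Mir195a (1.40) and Mir222 with Mir221 (1.35), named after their values were seen.

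**Figure D4:**
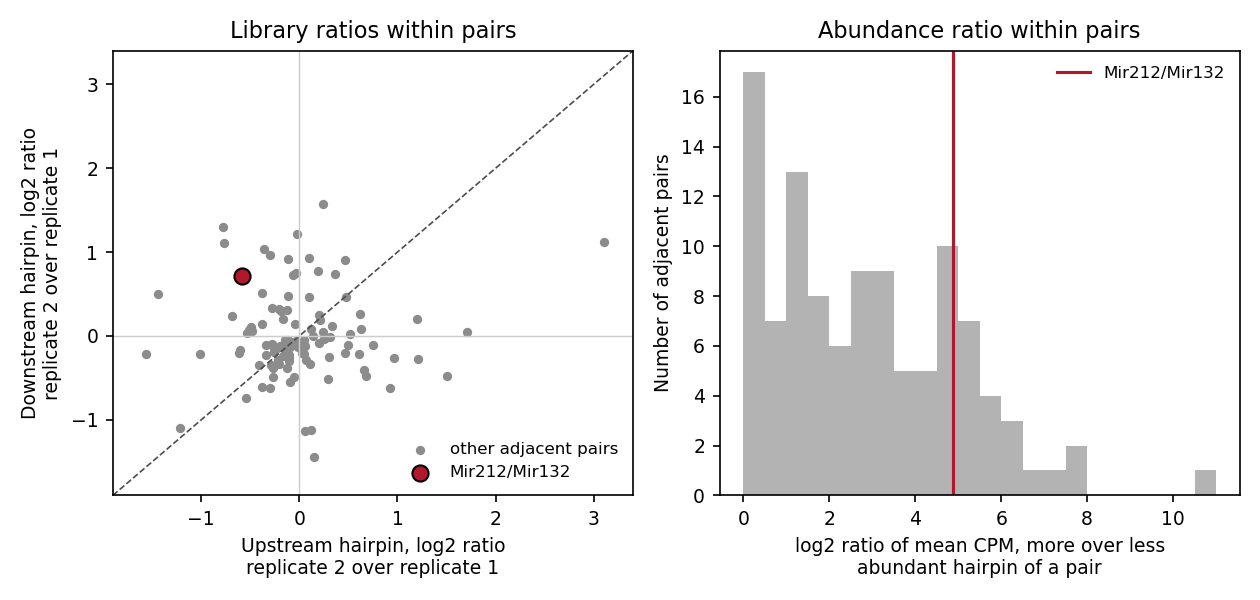
Left, log2 ratio of CPM between the libraries (replicate 2 over replicate 1) of the downstream against the upstream hairpin of 108 adjacent pairs, with a dashed line where both members have the same ratio. Right, number of pairs by the log2 ratio of their more to their less abundant member; Mir212/Mir132, in red, lies off the dashed line on the left and at 4.87 on the right.

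A list of 10 other microRNAs tied to neuronal activity or to dendrites and synapses, also drawn up with earlier results known, was set beside the pair. It is not complete: Mir487b (31244 CPM) and Mir382 (19697 CPM), neighbours of its members in the imprinted cluster and above Mir132, are not on it. All 10 genes were detected and had lower means than Mir132, as did most detected genes, since Mir132 ranked 16th of 406 by mean CPM. Of the 10, 7 lay above the mean of Mir212, which ranked 135th of 406, and 3 below it. Mir138-1, whose mature form is known to limit the size of dendritic spines, led them with 4973 CPM in replicate 2 and 4641 CPM in replicate 1. Mir485, known to act on the presynaptic protein gene Sv2a, had 1828 and 2189 CPM in replicates 2 and 1, and Mir138-2 had 1867 and 2040 CPM. Mir134, a dendritic repressor of Limk1, had 821 CPM in replicate 2 and 1010 CPM in replicate 1, so Mir132 had 17.7 times its mean level per hairpin. Mir381 and Mir329, which lie in the same imprinted cluster as Mir134 and are known to act in dendrite growth, averaged 1052 ± 194 and 599 ± 30.4 CPM (SD, n = 2). Mir329 was thus the member nearest to Mir212, at 1.08 times its mean, a gap smaller than the SD of Mir212. Mir188, known to act on the semaphorin receptor gene Nrp2, averaged 314 ± 43.5 CPM, and the imprinted Mir184 77.3 ± 9.92 CPM. Mir219a-2, known for oligodendrocyte differentiation, had 1531 ± 128 CPM and Mir219a-1 9.88 ± 0.214 CPM. The Mir138 and Mir219a copies share sequence, so their counts can be too low.

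Of the 10 members of the activity list 2 were called higher in replicate 2 (Mir138-1 and Mir329), 6 lower and 2 neither, beside 23.4% higher and 34.7% lower over all detected genes, with a median log2 ratio of -0.15 against -0.08 over all detected genes. When TMM set the library sizes, 3 members were called higher and 5 lower, beside 111 and 110 of the 406 detected genes, with a median of -0.07 against -0.003 over all genes. Mir329 missed the threshold (adjusted p = 0.144, exact binomial test) when the most abundant gene, Mir139, was left out of the totals. The list's log2 ratios ran from -0.38 for Mir381 to 0.26 for Mir184. Those of Mir132 at 0.72 and Mir212 at -0.58 lay outside this range of 10 genes, but such values were common in the whole table. Of all detected genes, 20.0% had a larger absolute ratio than Mir132 and 28.1% a larger one than Mir212.

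The genes most like Mir132 in their levels in the 2 libraries were Mir99a, Mir23b and Mir22, by Euclidean distance in log2 CPM. Mir99a lay closest, at a distance of 0.15, with 20648 CPM in replicate 2 and 13566 CPM in replicate 1. Mir23b followed at 0.46 with 15295 and 14330 CPM in replicates 2 and 1, a log2 ratio of 0.09 against 0.72 for Mir132. In rank of mean CPM, Mir132 was 16th, between Mir298 (16333 ± 11065 CPM) and Mir23b (14812 ± 683 CPM), and both lay within 1 SD of its mean. The genes most like Mir212 were Mir877 (distance 0.13, with 478 CPM in replicate 2 and 630 CPM in replicate 1), Mir1224 (0.17, with 412 and 604 CPM) and Mir3102 (0.20, with 445 and 577 CPM). Mir877 and Mir1224 are known as mirtrons, whose precursors are whole spliced introns. Mir212 ranked 135th, between Mir877 (554 ± 108 CPM) and Mir326 (539 ± 78.5 CPM), again by less than its SD. With 2 libraries, such likeness rests on 2 values per gene.

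On the chromosome, 4 other microRNA genes lie within 500 kb of the pair, and Mir22 alone was detected. It lies 290.0 kb downstream of Mir132 on the same strand, with 17616 CPM in replicate 2 and 8889 CPM in replicate 1. Its log2 ratio of 0.99 had the direction of Mir132 and not that of Mir212. Mir6926 had 0 and 4 counts in replicates 2 and 1. Gm47300 and Mir3971 had no counts. A count of 0 allows a level of 0.940 CPM in the smaller library, replicate 2, and of 0.730 CPM in the larger, replicate 1.

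The tissue label was set against microRNAs of cell identity. Neuronal Mir128-1 (14152 ± 150 CPM) and Mir137 (9846 ± 908 CPM, SD, n = 2) stood near Mir132. Of the 8 neuronal genes 4 were detected. The copies of Mir124a, with at most 19 counts in a library, and Mir9-2, with at most 9, missed the detection limit. Mir9-1 had at most 84 counts in a library and Mir9-3 at most 367. The copies of Mir124a and those of Mir9 share sequence, so their counts can be too low. Summed levels in replicates 2 and 1 were 2521 and 2855 CPM for the 2 oligodendrocyte genes, 884 and 958 CPM for the 3 of microglia and leukocytes, 13176 and 10449 CPM for endothelial Mir126a, and 5217 and 5074 CPM for the 2 of smooth muscle and pericytes. Of 6 genes of liver and muscle, 4 had 0 counts in both libraries, all of which have 18 or more bases in common with other microRNA genes, and the sum came to 71.8 and 72.5 CPM in replicates 2 and 1. Calls between the libraries went both ways across these genes, beside 23.4% higher and 34.7% lower over all detected genes. Mir126a (log2 ratio 0.33) was called higher in replicate 2, as were Mir132, Mir128-1 (0.02), Mir9-1 (1.30), Mir9-3 (0.41) and Mir143 (0.05). Mir137 (-0.19), Mir219a-2 (-0.17), Mir338 (-0.19), Mir145a (-0.22) and the leukocyte gene Mir142 were called lower, as was Mir212. Mir142 had 65.8 CPM in replicate 2 and 114 CPM in replicate 1 (log2 ratio -0.80). The other members of its list were not called, with log2 ratios of 0.21 for Mir223 and -0.05 for Mir150, which averaged 813 CPM. The part of such cell types in the difference of Mir132 or Mir212 was not tested.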

How the data were processed

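The authors deposited raw read counts per microRNA gene, 1 file per library, on mm10 with GENCODE M21 per the descriptions deposited beside the files. No source used here names the aligner, the counter or how reads with CAST/Ei variants were handled. The columns are laid out as STAR writes its gene counts, and the same-strand column was taken, with no normalization by the authors. The labels give an RNA size range below 30 bases. From these counts, CPM over the sum of counts in genes, exact intervals, exact binomial and Fisher's exact tests (scipy 1.17.1) with Benjamini-Hochberg adjustment (threshold 0.05) were computed. TMM (edgeR 4.0.16) and DESeq2 1.42.0 gave alternative scalings, and RNAfold (ViennaRNA 2.7.2) the folding energies. Procedures were tested on simulated counts that, apart from set changes, vary by read sampling only and so lack other variation between libraries.

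Named genes were the members, the activity list, detected genes within 500 kb, the 3 genes most alike, neighbours in rank and the 5 pairs nearest in ratio. Members and lists were chosen with earlier results of these data known. Fisher's test over all pairs was added after seeing the counts.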

Additional observations from a re-analysis of the deposited data

How the results depend on the processing

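Of 33 values that used both libraries, 28 stayed under the alternatives within the tolerance (1 SD between the libraries, 1.5 times for counts of genes, or direction and call for tests). With all reads as the library total the mean level was 5905 CPM for Mir132 and 202 CPM for Mir212, since unassigned reads then enter the denominator. The median log2 imbalance of adjacent pairs was 2.43 for the 64 pairs within 1 kb, 2.90 for the 119 within 50 kb and 2.31 for the 65 with no shared 18-base stretch, against 108 pairs in the report. Every alternative run kept the direction and the call of the library ratios of Mir132 and of Mir212. These runs included all reads as totals, which was chosen after seeing the data. For the ratio of Mir132 to Mir212, summing the counts of both libraries gave 27.6, against the mean of 31.9 and within the tolerance. The other alternative for the ratio, and the only one for its difference between the libraries, ignored the strand. Ignoring the strand added 3 counts of Mir132 in replicate 1, so it could hardly change either result. Library totals do not enter the ratio within a library. Without either replicate the levels ranged from 12230 to 20125 CPM for Mir132 and from 443 to 664 CPM for Mir212, and the ratio from 18.4 (without replicate 2) to 45.4 (without replicate 1); with 2 libraries this restates their difference. No paired analysis was possible because there is 1 group. Depth limits the ratio through Mir212, whose lower count was 1414.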
